A study of Mus musculus with 3 samples.

Results

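Spp1, Vcan, Fn1, Thbs1, F13a1, Lgals1, Lgals3 and Cd44 encode secreted matrix proteins of bone marrow and proteins that cross-link or bind them. They are 8 of the 32285 genes counted in each library, matched by symbol, and all 8 were found in all 3 libraries. They were selected on their measured levels in fusion against wild-type cells of these same libraries, so those differences are given here as levels with their errors and not as tests. Single cells of mouse bone marrow were sequenced from their 3' ends in droplets, in 2 genotypes: Ep300-Znf384-V5-HA, a tagged fusion of the acetyltransferase gene Ep300 with the zinc finger gene Znf384, called fusion here (2 libraries), and wild type (1 library). All mice were males aged 6 weeks. Each library mixed equal numbers of sorted live marrow cells and live lineage-negative cells from femur and tibia after red cell lysis, so a class's share of cells is not its share of the marrow. The labels do not say whether the fusion libraries came from separate animals, nor which cells carry the fusion. With 1 wild-type library, genotype and library cannot be told apart.

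Osteopontin (Spp1), versican (Vcan), fibronectin (Fn1) and thrombospondin-1 (Thbs1) are secreted proteins through which marrow cells attach, migrate and signal. Osteopontin and fibronectin bind integrins, versican binds hyaluronan, and thrombospondin-1 binds CD47 and CD36 and can activate latent TGF-beta. Factor XIII A (F13a1) is a transglutaminase that cross-links fibrin and fibronectin, the galectins Lgals1 and Lgals3 bind sugar chains of matrix and surface glycoproteins, and CD44 is the main hyaluronan receptor of blood cells and also binds osteopontin. Versican, fibronectin and F13a1 transcripts are known from classical monocytes, and thrombospondin-1 from megakaryocytes and platelets.

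The sequences upstream of Spp1 and Vcan are shown because these genes differed most, and in opposite directions, in monocytes, among those of the 8 genes that had a mean of at least 20 CPM there. Of the 8 genes, 5 had a window in the RefSeq promoter table (GRCm38.p6): Spp1, Vcan, F13a1, Lgals3 and Cd44. Each window below is the 250 bases before the first listed start of the gene, read 5' to 3' on its strand. The positions are chr5:104434861-104435110 (plus strand) for Spp1 and chr13:89742513-89742762 (minus strand) for Vcan. Capitals mark AAAAAA (a run of A or, on the other strand, T), GAGGAA (the core of an ETS site such as that of PU.1) and TGTGGT (a RUNX site), searched on both strands. The AP-1 site TGANTCA was searched too.
Spp1: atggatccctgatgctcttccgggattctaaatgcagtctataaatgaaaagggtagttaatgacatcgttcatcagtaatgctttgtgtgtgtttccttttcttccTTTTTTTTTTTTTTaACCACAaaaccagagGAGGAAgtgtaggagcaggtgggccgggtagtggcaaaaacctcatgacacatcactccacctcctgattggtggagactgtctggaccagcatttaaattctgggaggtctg
Vcan: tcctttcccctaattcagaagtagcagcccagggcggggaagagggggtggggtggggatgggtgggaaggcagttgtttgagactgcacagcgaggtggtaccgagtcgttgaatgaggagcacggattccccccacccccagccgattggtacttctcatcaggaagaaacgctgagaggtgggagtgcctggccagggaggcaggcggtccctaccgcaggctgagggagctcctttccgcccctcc
The Spp1 window held an uninterrupted run of 14 T, which is AAAAAA in overlapping copies on the other strand, followed by 1 RUNX match and 1 GAGGAA match that do not overlap it or each other. The Vcan window held none of the 4 motifs. Over all 32851 windows of the same length, 17.7% held AAAAAA, 23.3% GAGGAA, 14% TGTGGT and 6.75% the AP-1 site. A match describes the letters only. GAGGAA was also present in the window of Cd44 and in that of the first listed start of F13a1. Spp1 and F13a1 each had another window, at another listed start, that held none of the 4 motifs.

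The files held 9057 and 8122 barcodes in the fusion libraries and 9354 in wild type, with 97192347 and 111836603 UMIs against 93262028. After filtering, 7313 and 6895 fusion cells and 7431 wild-type cells remained, and the median cell held 7360 and 10008 UMIs in fusion, against 7430 in wild type. Between 9 and 17 kept barcodes were shared by a pair of libraries. Cells were clustered without the 8 genes and without the genes of the lists below, except list genes that are also cell markers. Marker lists then gave 13 classes with at least 50 cells in every library, so each class name means cells that resemble that type. Many neutrophil and monocyte clusters came almost wholly from 1 genotype, so those classes join different clusters in fusion and wild type. Mature neutrophils, for example, were clusters 0, 3 and 19 in fusion (1035, 770 and 237 cells in replicate 1, and 782, 648 and 146 in replicate 2). In wild type they were cluster 4, with 1383 of 1389 cells. Basophils with mast cells, and stem with lymphoid progenitors, were weighted differently. Basophils and mast cells joined cluster 15 (138 and 206 fusion cells and 272 wild-type cells) and cluster 18 (59 and 62 fusion cells and 327 wild-type cells). At a finer clustering resolution, a cluster led by Hlf and Adgrl4 held 209 and 215 fusion cells and 145 wild-type cells, and one led by Dntt and Arpp21 held 41 and 40 fusion cells and 235 wild-type cells. The part of this makeup in the differences of these classes was not tested. Other annotated genes overlap the spans of Spp1, Vcan, Fn1, Thbs1, F13a1 and Cd44, mostly on the opposite strand, and reads shared with them may not be counted. Values are CPM, the UMI count of a gene scaled to a fixed total, on TMM-scaled library sizes of class sums, and differences are log2 fold changes of fusion over wild type with their standard error.

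**Figure D1:**
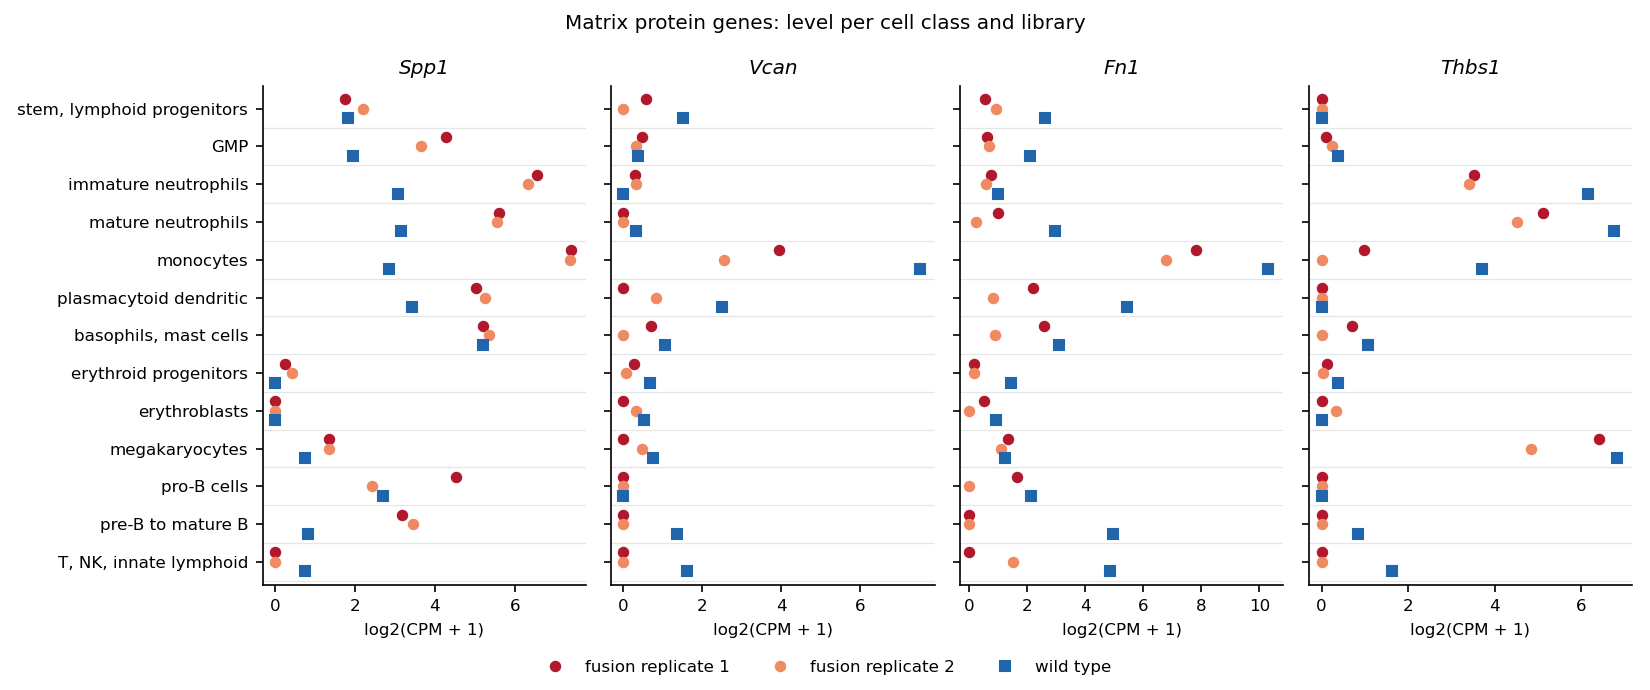
Level of Spp1, Vcan, Fn1 and Thbs1 on a log2(CPM + 1) axis in 13 cell classes, with 1 point a library and both fusion libraries as circles above the wild-type square. In monocytes both fusion libraries lie above wild type for Spp1 and below it for Vcan and Fn1, and in both neutrophil classes they lie below it for Thbs1.

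Spp1 (ENSMUSG00000029304, chr5:104435118-104441050, plus strand, GRCm38) was higher in fusion myeloid cells. In monocytes it stood at 169 and 165 CPM in fusion, against 6.24 CPM in wild type, a log2 difference of 4.73 ± 0.31 or 26.6-fold. Both fusion libraries were far above the wild type and close to each other (167 ± 2.75 CPM, SD, n = 2). Immature neutrophils had 93.2 and 78.7 CPM in fusion, against 7.49 CPM in wild type (3.52 ± 0.22). Mature neutrophils had 47.3 and 45.5 CPM in fusion, against 7.91 CPM in wild type (2.55 ± 0.30). Plasmacytoid dendritic cells differed less, with 31.4 and 37.1 CPM against 9.71 CPM (1.81 ± 0.36, and 2.57 with equal cells per library). The fusion libraries did not overlap the wild type in any of these 4 classes. Over all genes with a mean of at least 20 CPM, both fusion libraries lay above the wild type in 33.7% of gene and class pairs. They lay below it in 35.1%. Such a separation is thus common, here and for the genes below.

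Basophils and mast cells were a class where Spp1 did not separate the genotypes: 36.0 and 39.5 CPM in fusion and 36.1 CPM in wild type (0.07 ± 0.21). They were also the wild-type class with the highest Spp1, followed by plasmacytoid dendritic cells. In fusion the order was monocytes, immature neutrophils, mature neutrophils and then basophils, and the ranges of the fusion libraries did not overlap between neighbours down to mature neutrophils. Granulocyte-monocyte progenitors, which give rise to neutrophils and monocytes, had 18.4 and 11.5 CPM in fusion, against 2.89 CPM in wild type (2.36 ± 0.35). Erythroid progenitors had 9 and 16 Spp1 UMIs in fusion and 0 in wild type, at least 1.82-fold higher against a floor of 3 counts. T, NK and innate lymphoid cells, which serve as a measure of free RNA in the droplets, had 0 and 0 Spp1 UMIs in fusion and 1 in wild type. Pre-B to mature B cells, another lymphoid class, had 4 and 6 UMIs in fusion and 1 in wild type, a ratio of plain CPM of 12.5 (exact 95% counting interval 1.78 to 543). Summed over all kept cells, Spp1 gave 1815 and 1683 UMIs in fusion and 376 in wild type. Immature neutrophils held 44.8% and 36.2% of the fusion UMIs, and basophils and mast cells held 35.1% of those in wild type.

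Spp1 was found in a larger share of fusion monocytes and immature neutrophils, and was higher in fusion in matched granulocytic clusters, given further below. With every cell thinned to 2000 UMIs, 20% (exact 95% interval 14.9 to 25.9) and 22.9% (17.8 to 28.6) of fusion monocytes had a Spp1 UMI, against 0.826% (0.171 to 2.40) in wild type. The unthinned shares were 48.4% and 54.1% in fusion, against 5.91% in wild type. Among immature neutrophils the thinned shares were 12.5% and 10.4% in fusion, against 0.962% in wild type. Among T, NK and innate lymphoid cells 0 of 100 and 0 of 90 fusion cells and 0 of 234 wild-type cells had one, which allows shares of up to 3% and 3.33% in fusion and 1.28% in wild type. The median depth before thinning of the cells used was 7566 and 10019 UMIs in fusion monocytes and 9358 in wild-type ones. In lymphoid cells it was 3161 and 4257 UMIs in fusion and 4778 in wild type. The monocyte class holds a small cluster with Ace among its leading genes, the pattern of non-classical monocytes. It had 0 Spp1 UMIs in its 42 and 72 fusion cells and its 44 wild-type cells. Without it, the monocyte difference was 4.79 ± 0.34. Spp1 was among the leading genes of monocyte sub-cluster 12.5, with 38 and 50 fusion cells and 9 wild-type cells. Spp1 levels in the monocyte sub-clusters that both genotypes populated are not given here.

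**Figure D2:**
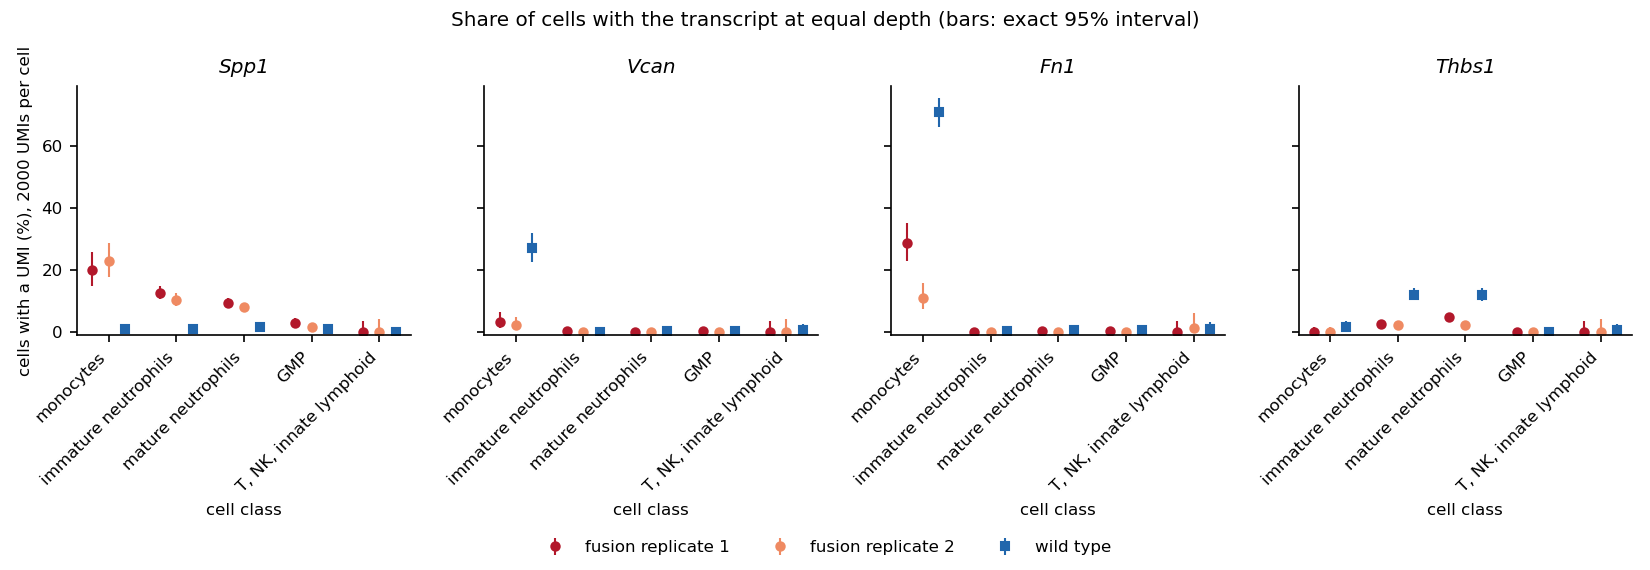
Share of cells with at least 1 UMI of Spp1, Vcan, Fn1 or Thbs1 in 5 classes, after thinning every cell to 2000 UMIs; bars are exact 95% intervals, which cover counting error only, and fusion libraries are the circles left of each wild-type square. The Spp1 share of monocytes is 20% and 22.9% in fusion against 0.826% in wild type, and the Fn1 share is 28.6% and 11.02% against 71.1%.

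Neutrophil clusters differ in genotype as well as in maturity, so cluster 11 is the closest comparison. It is a group of immature neutrophils led by Fcnb, Chil3 and Camp, with 304 and 260 fusion cells and 261 wild-type cells. There Spp1 stood at 162 and 116 plain CPM in fusion, against 10.7 plain CPM in wild type. Cluster 5, led by Ltf and Ngp, had 57.1 and 42.5 plain CPM in fusion, against 10.3 in wild type (84 cells). The earlier granulocyte progenitors of cluster 20, led by Elane, had 55.3 and 28.9 plain CPM in fusion, against 2.13 in wild type. Spp1 was therefore higher in fusion at each of the 3 granulocytic steps that both genotypes populated. Within fusion, its level was highest in cluster 11 and lower in each cluster of mature neutrophils, where it ranged from 40.9 to 65.1 plain CPM. The marker lists also moved between genotypes inside the mature class. The summed level of the 9 immature neutrophil markers was 33376 and 31532 CPM in fusion mature neutrophils, against 12903 CPM in wild type. Its part in the neutrophil differences was not tested.

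Thbs1 (ENSMUSG00000040152, chr2:118111876-118127133, plus strand) was lower in fusion neutrophils. Immature neutrophils had 10.5 and 9.68 CPM in fusion, against 70.6 CPM in wild type (-2.80 ± 0.17), and mature neutrophils had 33.9 and 22.0 CPM, against 107 CPM (-1.93 ± 0.21). The fusion libraries lay below the wild type in both classes. With the border between them drawn by other clusterings, the immature difference was between -3.89 and -1.65. Megakaryocytes, the precursors of platelets, had the highest level in both genotypes, at 84.0 and 27.6 CPM in fusion and 113 CPM in wild type (-1.06 ± 0.38). The fusion libraries differed there by more than the nearer one differed from wild type, and the log2 difference was -0.43 without fusion replicate 2 and -2.01 without replicate 1. At 2000 UMIs per cell, 2.57% and 2.03% of fusion immature neutrophils had a Thbs1 UMI, against 12.0% in wild type. In monocytes Thbs1 gave 2 and 0 UMIs in fusion and 50 in wild type, a ratio of plain CPM of 0.0342 (exact 95% counting interval 0.00404 to 0.13).

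The neutrophil clusters divided Thbs1 differently from Spp1. The cluster that both genotypes populated best, cluster 11, had almost no Thbs1: 2 and 0 UMIs in fusion and 11 in wild type. Cluster 5 had 21.9 and 17.3 plain CPM in fusion and 13.2 in wild type, where it rested on 9 UMIs. The high wild-type values came from cluster 13 (immature, led by AA467197, Wfdc21 and Ltf) at 125 plain CPM and cluster 4 (mature) at 104 plain CPM. Cluster 13 held 6 and 26 fusion cells and 728 wild-type cells. The highest fusion value in a cluster of at least 50 cells was 49.7 and 25.8 plain CPM, in cluster 0. In this clustering, the high Thbs1 values lay in clusters found mainly in 1 genotype. When genes called between genotypes were also left out of clustering, neutrophil clusters held both genotypes, such as an immature one with 585 and 532 fusion cells and 560 wild-type cells. The Thbs1 difference was then -2.24 in immature and -2.25 in mature neutrophils.

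**Figure D3:**
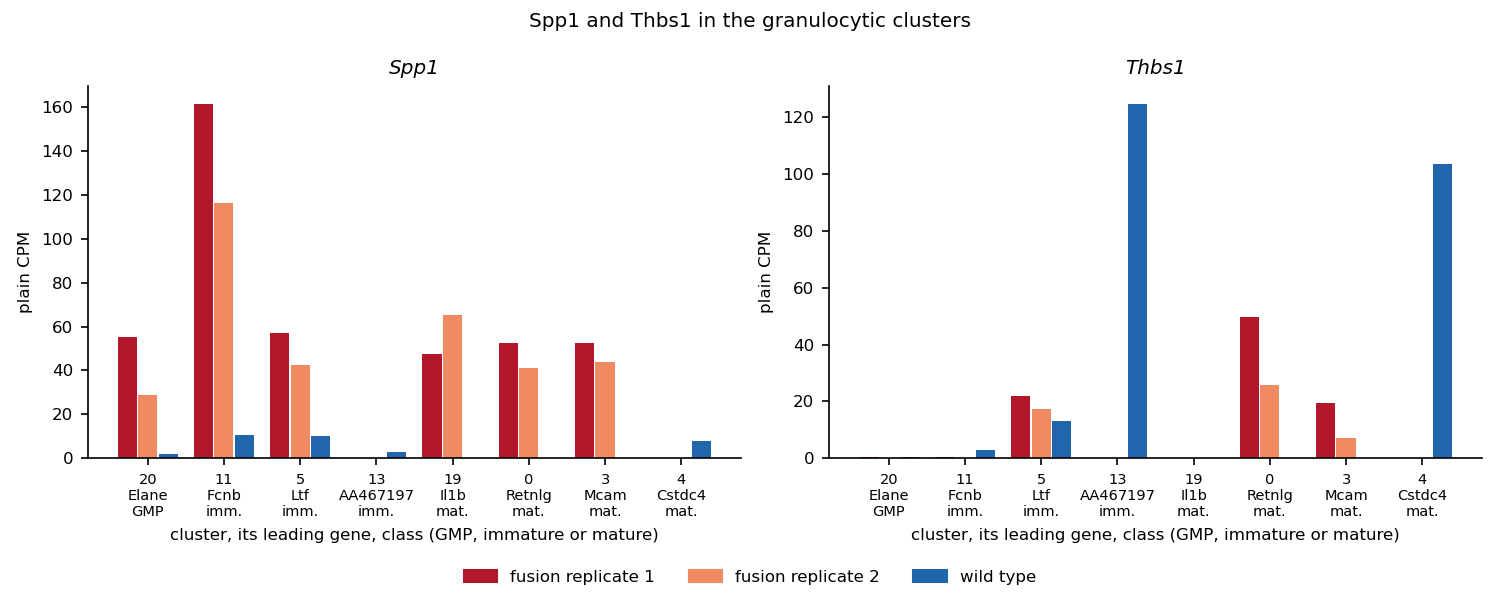
Plain CPM of Spp1 and Thbs1 in 8 granulocytic clusters, with fusion bars left of wild type; clusters with under 50 cells in a library have no bar for it. Spp1 in cluster 11 is 162 and 116 in fusion against 10.7 in wild type, while Thbs1 reaches 125 and 104 in the wild-type clusters 13 and 4.

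Vcan (ENSMUSG00000021614, chr13:89655312-89742509, minus strand) was lower in fusion monocytes. Monocytes had 14.5 and 4.83 CPM in fusion, against 182 CPM in wild type, from 30 and 14 UMIs against 758 (-4.32 ± 0.33, 19.9-fold lower). Both fusion libraries lay far below the wild type, and the log2 difference was -5.10 without fusion replicate 1 and -3.60 without replicate 2. Monocytes held 57.7% and 51.9% of Vcan UMIs in fusion and 83.8% in wild type, of 52 and 27 in all in fusion and 905 in wild type. At equal depth, 3.18% and 2.04% of fusion monocytes had a Vcan UMI, against 27.0% of wild-type monocytes. In the shared sub-cluster 12.2, led by F13a1 and Itga1, Vcan gave 0 and 0 UMIs in fusion (25 and 35 cells) and 15 in wild type (59 cells). Of the other 12 tested classes, none reached 5 CPM of Vcan in any library. Dendritic cells were too few to be tested. Their larger sub-cluster, 12.4, led by H2-Eb1, H2-Aa and Cd74, had 1 and 0 Vcan UMIs in fusion (30 and 21 cells) and 93 in wild type (50 cells), which is 318 plain CPM in wild type. Fn1 in that sub-cluster was 82.6 and 15.6 plain CPM in fusion, against 877 in wild type.

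Fn1 (ENSMUSG00000026193, chr1:71585520-71653200, minus strand) followed Vcan. Monocytes had 224 and 108 CPM in fusion, against 1267 CPM in wild type (-2.94 ± 0.32, 7.66-fold lower; -3.54 without fusion replicate 1). They held 88.0% and 89.7% of all Fn1 UMIs in fusion and 89.0% in wild type. A Fn1 UMI was found in 28.6% and 11.02% of fusion monocytes at 2000 UMIs, against 71.1% in wild type, and among cells with one the mean was 1.75 and 1.70 UMIs against 4.07. Fewer fusion monocytes had the transcript, and those that did had fewer UMIs of it. Sub-cluster 12.2 had 82.1 and 30.6 plain CPM in fusion, against 378 in wild type, and sub-cluster 12.3, led by S100a4, Ahnak and Ly6c2, had 149 and 48.6 plain CPM against 835. Fn1 was therefore lower in fusion in both monocyte sub-clusters that held at least 25 cells of every library. Other monocyte sub-clusters were nearly all of 1 genotype, such as 12.0 with 4 and 4 fusion cells and 152 wild-type cells.

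Low Fn1 counts in other classes were also lower in fusion. Plasmacytoid dendritic cells had 3.58 and 0.772 CPM in fusion and 42.6 CPM in wild type, and pre-B to mature B cells had 0 and 0 CPM against 30.5 CPM, at least 10.4-fold lower over both libraries against a floor of 3 counts. T, NK and innate lymphoid cells had 0 and 1.89 CPM in fusion and 27.8 CPM in wild type. That wild-type value rested on 2 cells, 1 of which held 39 of the 40 UMIs. In pre-B to mature B cells the wild-type value rested on 7 of 382 cells, so the Fn1 values of wild-type lymphoid classes come from few cells. The part of free RNA or of undetected doublets in them was not tested.

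In fusion monocytes Spp1 and Fn1 were found together about as often as the product of their single shares. Leaving out the Ace cluster, 10.1% and 3.89% of fusion monocytes had both transcripts at 2000 UMIs, where that product is 8.65% and 4.67%. Spp1 and F13a1 were found together in 20.7% and 26.7% of fusion monocytes, against products of 21.6% and 25.4%. In wild type, Fn1 and Vcan were found together in 29.0% of monocytes, with a product of 24.3%. The 8 monocyte markers, which include Csf1r, Ccr2 and Ly6c2, summed to 9410 and 8195 CPM in fusion monocytes, against 6127 CPM in wild type. The class was named from these same markers, so their level cannot show whether monocyte identity was kept. Of 11 macrophage markers, summed at 77.7 and 76.7 CPM in fusion and 86.3 CPM in wild type, C1qa, C1qb, C1qc and Cd5l were at 0 in all 3 libraries. The whole sum thus came from the rest of that list, whose single values are not given here. The 12 stromal, bone and endothelial markers summed to 0.990 and 1.02 CPM in fusion and 0.943 CPM in wild type. Markers of stroma and bone, other known producers of osteopontin and fibronectin, were thus near 0 in the monocyte class.

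F13a1 (ENSMUSG00000039109, chr13:36867178-37050244, minus strand) was lower in fusion by a smaller factor. Monocytes had 986 and 788 CPM in fusion, against 1389 CPM in wild type (-0.65 ± 0.27). Granulocyte-monocyte progenitors had 114 and 109 CPM, against 238 CPM (-1.09 ± 0.14), and plasmacytoid dendritic cells 107 and 141 CPM, against 206 CPM (-0.73 ± 0.23). In each of the 3 classes both fusion libraries lay below the wild type. Monocytes and granulocyte-monocyte progenitors together held most F13a1 UMIs of every library. T, NK and innate lymphoid cells read 8.43 and 5.66 CPM of F13a1 in fusion and 34.1 CPM in wild type, and values of other classes at or below these are not read as expression. A fixed amount of free RNA per droplet would read as a lower CPM in classes with more UMIs per cell, so this level is a rough one. At 2000 UMIs, F13a1 was found in 71.4% and 60.4% of fusion monocytes and 81.5% of wild-type ones, and in 2% and 1.11% of fusion lymphoid cells and 2.99% of wild-type ones.

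**Figure D4:**
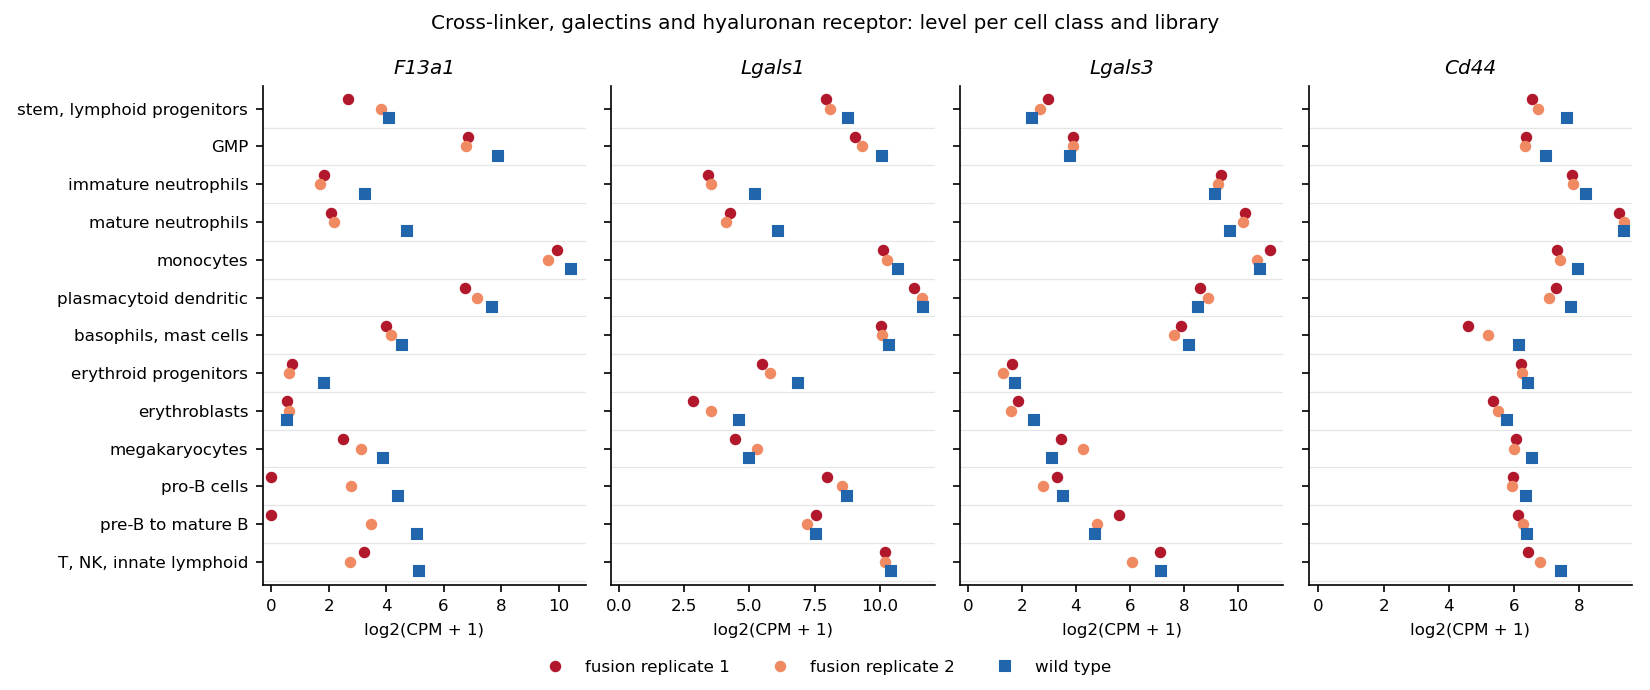
Level of F13a1, Lgals1, Lgals3 and Cd44 on a log2(CPM + 1) axis in 13 cell classes, with 1 point a library and both fusion libraries as circles above the wild-type square. Cd44 points of fusion lie at or below wild type in every class, and Lgals1 points lie below it in granulocyte-monocyte progenitors and in both neutrophil classes, while Lgals3 in mature neutrophils is higher in fusion (1228 and 1186 CPM against 835 CPM).

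Lgals1 (galectin-1, ENSMUSG00000068220, chr15:78926725-78930465, plus strand) was lower in fusion in progenitors and neutrophils. Granulocyte-monocyte progenitors had 537 and 637 CPM in fusion, against 1105 CPM in wild type (-0.91 ± 0.18). Stem and lymphoid progenitors had 246 and 273 CPM, against 446 CPM (-0.78 ± 0.20), and erythroid progenitors 44.2 and 55.0 CPM, against 114 CPM (-1.21 ± 0.14). Fusion and wild type did not overlap in these 3 classes. An unnamed cluster led by Ctla2a, F2r and Apoe, whose leading genes held more stem than erythroid markers, had 245 and 277 CPM in fusion, against 644 CPM in wild type (-1.30 ± 0.19). Mature neutrophils had 17.9 and 16.3 CPM, against 68.4 CPM (-1.996 ± 0.23).

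Differences in Lgals1 were smaller in 3 of the classes with the most of it. Plasmacytoid dendritic cells were the highest in both genotypes, at 2592 and 3135 CPM in fusion and 3275 CPM in wild type (-0.19 ± 0.26). T, NK and innate lymphoid cells had 1195 and 1186 CPM in fusion and 1373 CPM in wild type (-0.21 ± 0.28), and basophils and mast cells had 1050.3 and 1095 CPM against 1305 CPM (-0.28 ± 0.21). The first 2 of these differences are smaller than their standard errors, and the order of the means of the 5 highest classes was the same in fusion and wild type. The fusion ranges of monocytes, second in that order, and of T, NK and innate lymphoid cells overlapped. Monocytes had 1133 and 1252 CPM in fusion and 1649 CPM in wild type (-0.47 ± 0.27). In megakaryocytes and in pre-B to mature B cells the groups overlapped.

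Lgals3 (galectin-3, ENSMUSG00000050335, chr14:47367751-47386160, plus strand) was the other gene besides Spp1 with higher values in fusion neutrophils. Mature neutrophils had 1228 and 1186 CPM in fusion, against 835 CPM in wild type (0.53 ± 0.23), and immature neutrophils 672 and 613 CPM, against 578 CPM (0.15 ± 0.18). Both fusion libraries were above the wild type in both classes, and in immature neutrophils the nearer one by less than they differed from each other. Monocytes, the class with the highest level, had 2357 and 1679.8 CPM in fusion and 1799 CPM in wild type, so the groups overlapped. Basophils and mast cells had 238 and 201 CPM in fusion, against 292 CPM in wild type (-0.42 ± 0.20), yet within each of their clusters the fusion libraries were the higher: 104 and 102 plain CPM against 80.2 in cluster 15, and 950.4 and 891 against 723 in cluster 18. The share of mature neutrophils with an Lgals3 UMI at equal depth was 90.7% and 83.2% in fusion and 74.4% in wild type.

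Cd44 (ENSMUSG00000005087, chr2:102811141-102901665, minus strand) was lower in both fusion libraries in 13 of 13 classes, by amounts that were mostly small. Over all genes with a mean of at least 20 CPM, 35.1% of gene and class pairs lay below the wild type in this way. Under some other settings the sign of Cd44 changed in mature neutrophils and in pre-B to mature B cells. The largest differences were in basophils and mast cells, with 23.0 and 36.0 CPM in fusion and 70.0 CPM in wild type (-1.21 ± 0.21), and in stem and lymphoid progenitors, with 92.1 and 105 CPM against 195 CPM (-0.98 ± 0.19). Within the basophil clusters Cd44 was also lower, at 22.9 and 29.8 plain CPM in fusion against 50.4 in wild type in cluster 15, and at 30.3 and 78.1 against 102 in cluster 18. Granulocyte-monocyte progenitors had 81.8 and 79.8 CPM, against 124 CPM (-0.62 ± 0.12), and monocytes 159 and 169.8 CPM, against 248 CPM (-0.59 ± 0.22). Mature neutrophils, where Cd44 was highest, had 593 and 665 CPM in fusion and 665 CPM in wild type (-0.08 ± 0.22), so their fusion replicate 2 differed from the wild type by less than 1 CPM. The Cd44 transcript was found in 70.4% and 69.7% of fusion mature neutrophils and 68.5% of wild-type ones at equal depth.

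**Figure D5:**
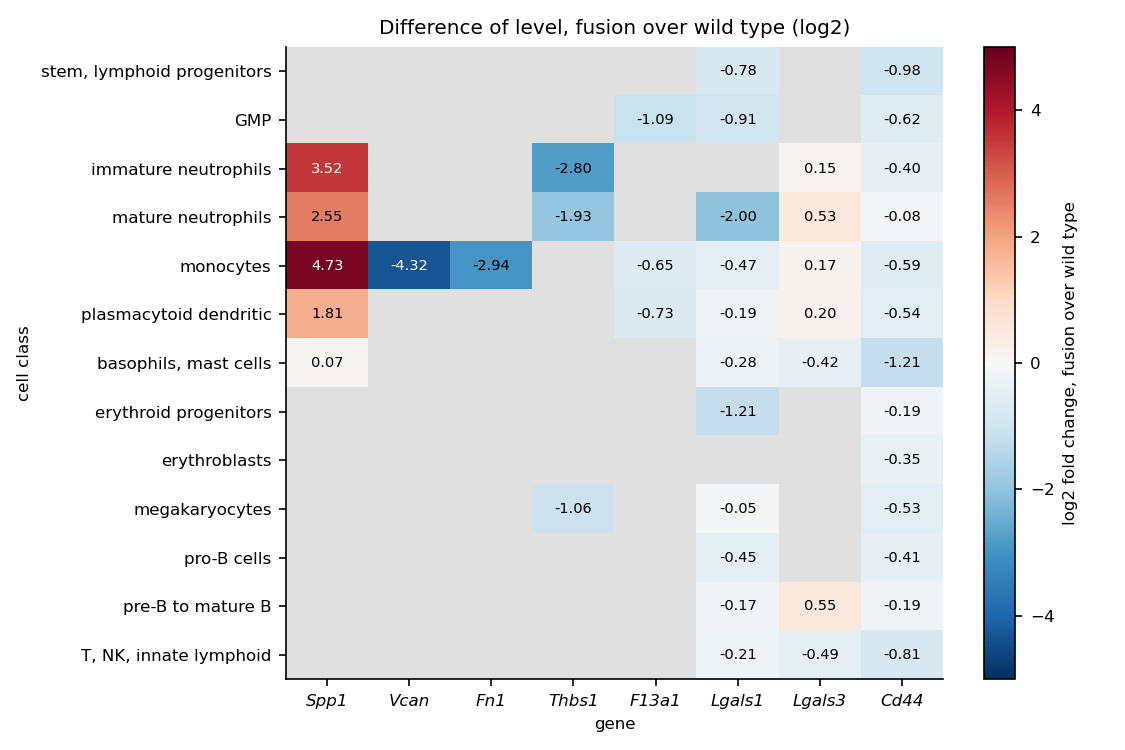
Log2 fold change of fusion over wild type for the 8 genes in 13 classes, for the 44 gene and class pairs with a mean of at least 20 CPM over the 3 libraries; grey pairs are below that level or were not fitted. Red marks higher and blue lower in fusion: Spp1 is 4.73 in monocytes, where Vcan is -4.32 and Fn1 -2.94, and the Cd44 column is below 0 throughout.

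Of 104 pairs of gene and class, 73 passed the filter on low counts, which a gene can pass through 1 genotype alone, and 44 had a mean of at least 20 CPM. Among these 44, both fusion libraries lay above the wild type in 8 and below it in 32, and 4 overlapped. Over all genes at that level, 33.7% of pairs lay above and 35.1% below. The edgeR quasi-likelihood fit called 4 of the 73 pairs higher and 19 lower at an adjusted p under 0.05, where 0.818% and 1.78% of all pairs were called. As the genes were chosen for such differences, nothing is read from these counts. The 4 higher calls were all Spp1, in monocytes, both neutrophil classes and plasmacytoid dendritic cells.

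Genes whose levels over classes and libraries were most like each of the 8 were found by Pearson's r of log2(CPM + 5) over 39 points, 13 classes in 3 libraries that share depth and free RNA, among 8718 genes. Vcan was most like Msr1, a scavenger receptor gene (r = 0.949), Fcgr1 and Arhgef37, and Fn1 was most like Fcgr1, a high-affinity IgG receptor gene (r = 0.931), Arhgef37 and Ms4a6d. The correlation of Vcan with Fn1 was 0.897. F13a1 was most like Met (r = 0.945), Ms4a6c and Nrg1, and Thbs1 like F5, the gene of coagulation factor V (r = 0.872), and Lims1. Lgals1 was nearest to Cd48 (r = 0.919), Npc2 and Znrf2, Lgals3 to Gnb2 (r = 0.942), Cdc42 and Anxa2, and Cd44 to Ptafr (r = 0.898), Rin2 and Cd33. Spp1 had the weakest likeness, to Arpc3 (r = 0.797), Atp6v0b and Plp2. Among the 8 genes, its correlation was lowest with Thbs1 (0.0143) and Vcan (0.13) and highest with Lgals3 (0.742).

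To place these genes among others of the matrix, 7 lists of receptors, proteoglycans, matrix glycoproteins, proteases, cross-linking and clotting enzymes, other galectins and TGF-beta activators were tested in the same fit. The lists hold 175 genes found in the files and, like the 8 genes, were drawn up with earlier results of these libraries known. Over the 13 classes, 22 of 853 pairs of list gene and class rose and 66 fell, which is 2.58% and 7.74%, against 0.818% and 1.78% of all pairs. With DESeq2 in place of edgeR, 10 rose and 9 fell. As the lists were chosen with earlier results known, nothing is read from the excess over all pairs. Adjusted p-values of list genes are given as description. The lower calls were spread over the lists. Receptors had 18 of 217 pairs (8.29%), proteases and inhibitors 15 of 175 (8.57%), and glycoproteins and collagens 9 of 80 (11.2%). Cross-linking and clotting enzymes had 7 of 95 (7.37%), other galectins 6 of 50 (12.0%), TGF-beta genes 6 of 151 (3.97%) and proteoglycans 5 of 85 (5.88%). In monocytes, the list genes had a median log2 difference of -0.25, against 0.00 over all genes, and 2 of 71 fell. The shares called over all genes were 0.396% higher and 0.742% lower. F10, the gene of coagulation factor X, fell to 30.5 and 45.2 CPM in fusion, against 121 CPM in wild type (-1.66 ± 0.24, edgeR adjusted p = 0.000869). The other was Serpinb2, a serine protease inhibitor gene under the level set for naming and named after its values were seen.

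Mature neutrophils had the most list calls of the 13 classes. In mature neutrophils 8 of 78 list genes rose and 14 fell (median -0.04, against 0.01 over all genes), where 3.62% of all genes were called higher and 5.98% lower. Mmp8, the neutrophil collagenase, rose to 9709 and 12800 CPM in fusion, against 3281 CPM in wild type (1.78 ± 0.29, edgeR adjusted p = 5.73e-08). Spn, the sialoglycoprotein CD43, had 60.3 and 63.8 CPM in fusion, against 20.7 CPM (1.58 ± 0.25, edgeR adjusted p = 7.54e-09). Tgm2, a transglutaminase, the integrin gene Itgb7 and Plod3, a collagen lysyl hydroxylase, rose too. Among those with a mean of at least 20 CPM, the largest fall was that of Tgfbr2, a TGF-beta receptor. It had 15.5 and 15.5 CPM in fusion, against 44.9 CPM (-1.53 ± 0.24, edgeR adjusted p = 1.61e-08). Fgl2, Tgfbi, Selplg and Tlr2 fell too. Some list genes under that level fell by more. They include the transglutaminase genes Tgm3 (0.507 and 0.393 CPM against 7.14 CPM) and Tgm1 (0.507 and 1.18 CPM against 7.91 CPM), named after their values were seen. In immature neutrophils 2 of 72 rose and 14 fell (median -0.27, against 0.00), with 1.79% and 4.08% of all genes called. Mmp8 rose there too, to 3460 and 4219 CPM against 1490 CPM, and Timp2, Adam8, Srgn, Selplg and Mmp9 fell. Mmp9 is also one of the mature neutrophil markers used to name cells, so its level depends on how the classes were drawn. With all neutrophils summed into 1 class, 5 of 89 list genes rose and 8 fell, where 172 and 296 of all 11173 genes were called. Of the neutrophil genes named here, Mmp8, Tgm1, Tgm2, Tgm3, Itgb7, Tgfbr2, Fgl2 and Tgfbi were called in that sum, and Spn, Plod3, Selplg, Tlr2, Timp2, Adam8, Srgn and Mmp9 were not.

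Mmp8 was called higher in 7 of the 13 classes, where 0.818% of all gene and class pairs were called higher. Outside neutrophils it was highest in monocytes, where it was not called (245 and 306 CPM in fusion and 158 CPM in wild type). Plasmacytoid dendritic cells had 119 and 83.4 CPM in fusion, against 8.44 CPM in wild type. T, NK and innate lymphoid cells read 16.9 and 22.6 CPM in fusion and 18.1 CPM in wild type, so their free-RNA level of Mmp8 overlapped between genotypes. Erythroid progenitors, 1 of the 7 classes, had 7.67 and 8.75 CPM in fusion against 2.38 CPM, below that level in every library. Granulocyte-monocyte progenitors, another, had 24.9 and 24.3 CPM against 6.01 CPM, near it in fusion and below it in wild type. Values at or below that level are not read as expression. The level is in CPM and comes from cells with few UMIs. In fusion replicate 1, 116 T, NK and innate lymphoid cells summed to 463634 UMIs, and 1677 erythroid progenitors to 46644120. A fixed amount of free RNA per droplet would read as a lower CPM in cells with more UMIs. The level therefore does not settle whether Mmp8 values below it are free RNA. The part of neutrophil RNA in the other classes was not tested.

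In basophils and mast cells 3 of 69 list genes rose and 14 fell (median -0.21, against 0.01), with 1.95% and 5.25% of all genes called. Itga2, a collagen-binding integrin, fell to 18.0 and 15.8 CPM in fusion, against 77.4 CPM in wild type (-2.20 ± 0.22, edgeR adjusted p = 1.89e-07), and Serpine2, Adam8, Itgb2 and Lgalsl also fell, while the sheddase gene Adam17 rose. In megakaryocytes 1 of 69 rose and 8 fell (median -0.18, against 0.00), with 0.0728% and 0.561% of all genes called. Timp3, an inhibitor of metalloproteases, fell to 143 and 121 CPM in fusion, against 328 CPM (-1.32 ± 0.18, edgeR adjusted p = 0.00235), together with F10, F5, Vwf and Mmrn1, which encode clotting factors and platelet granule proteins. Vwf is also a megakaryocyte marker used to name cells.

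Itga4, the alpha chain of the fibronectin and VCAM-1 receptor, fell in 4 classes by the same test, 1 of them mature neutrophils, where it was not called with all neutrophils summed. Stem and lymphoid progenitors had 131 and 119 CPM in fusion, against 262 CPM in wild type (-1.07 ± 0.19, edgeR adjusted p = 5.8e-06), in a class where 2 of 71 list genes rose and 5 fell (median 0.06, against 0.00) and 1.11% and 2.27% of all genes were called. Ctss, Sdc1, Smad7 and Selplg fell there as well. In plasmacytoid dendritic cells, where 0.14% and 0.237% of all genes were called, Itga4 had 71.7 and 74.9 CPM against 161 CPM. In pro-B cells, where 0.366% and 0.392% were called, it had 142 and 116 CPM against 256 CPM. Cd36, a receptor for thrombospondin-1, rose in pro-B cells (87.6 and 67.6 CPM against 7.61 CPM) and in pre-B to mature B cells (88.0 and 118 CPM against 10.2 CPM), where 0.0521% and 0.365% of all genes were called. In erythroid progenitors 2 of 89 list genes rose and 4 fell, with 0.465% and 1.19% of all genes called, and Lgals9 and Lgals3bp were among those that fell.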

How the data were processed

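Droplet 3' libraries from 2 fusion samples and 1 wild-type sample were read as the raw UMI count matrices deposited by the authors, one row per gene and one column per cell barcode. Per the submitters' processing notes, bcl2fastq 2.20.0.422 and Cell Ranger 5.0.1 were used with the GRCm38 mouse genome; the matrix headers name Cell Ranger 5.0.0. The 8 genes and the lists were chosen with earlier results of these data known. Barcodes under 1000 UMIs or 400 genes, or with over 10% of UMIs from mitochondrial genes, were left out, and doublets predicted by Scrublet (expected rate 0.06) were removed, 225 and 318 in fusion and 194 in wild type. Cells were clustered with scanpy 1.11.5 and leidenalg 0.10.2 on 2000 variable genes and 30 principal components at resolution 1.0, giving 33 clusters. A cluster was named from its marker list unless its leading genes held more markers of another class. The joined name for stem and lymphoid progenitors, the re-clustering of monocytes and dendritic cells, and the unnamed cluster were settled after seeing the data.

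Counts were summed per library and class and fitted on all genes with edgeR 4.0.16 (TMM, filterByExpr, quasi-likelihood test, Benjamini-Hochberg adjusted p under 0.05, R 4.3.3), with 1 residual degree of freedom; the lone wild-type library is assumed to vary like the fusion libraries. Standard errors are the absolute log2 fold change divided by the square root of F. Fitted p-values measure the spread between these samples, which may be technical. Named list genes had an adjusted p under 0.05, a mean of at least 20 CPM, both fusion libraries on one side, and the first 5 per direction by size in a class; likeness took the first 3 genes by r, of which 1 is not reported here. Intervals are Clopper-Pearson for shares and exact conditional Poisson for count ratios, and a count of 0 is read against a floor of 3 counts; all cover counting error only. On simulated counts with 200 genes changed, 41% of changes of log2 size 1 and 90% of size 2 were recovered in monocytes (10107 genes), and 41% and 82% in mature neutrophils (9725 genes). Alternatives were DESeq2 1.42.0, other size factors, no filter, other clusterings and class assignments, doublets kept, equal cells, and leaving out a fusion library. Dendritic cells, with too few cells in a library, were not tested.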

Additional observations from a re-analysis of the deposited data

Results flagged for a closer look

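Lgals3 was flagged because every fusion library lay on one side of the wild type in one lymphoid class and on the other side in another. Over all genes with a mean of at least 20 CPM, 33.7% of gene and class pairs lay above the wild type and 35.1% below, so this pattern is not unusual. In pre-B to mature B cells it was higher in both fusion libraries, at 48.0 and 26.6 CPM against 25.0 CPM in wild type (log2 difference 0.55 ± 0.44). In T, NK and innate lymphoid cells it was lower in both, at 137 and 66.0 CPM against 141 CPM (-0.49 ± 0.32). The difference between the classes was not tested, and 1 fusion library lay near the wild type in each.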

How the results depend on the processing

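The 44 log2 differences of the 8 genes were recomputed under other scalings, filters, clusterings, class assignments and cell sets and without each fusion library: 38 kept their sign throughout, and all 13 of at least 1 in size did. The 6 that changed sign under some setting were Spp1 in basophils and mast cells, Cd44 in mature neutrophils and in pre-B to mature B cells, Lgals1 in megakaryocytes and in pre-B to mature B cells, and Lgals3 in monocytes. Spp1 ranged from 4.35 to 4.79 in monocytes, 3.20 to 3.71 in immature and 2.45 to 3.20 in mature neutrophils; Vcan and Fn1 in monocytes ranged from -5.10 to -3.60 and from -3.54 to -2.47. Thbs1 ranged from -3.89 to -1.65 in immature neutrophils and from -2.01 to -0.40 in megakaryocytes. Calls over all genes depended more on the processing: 3291 gene and class pairs were called by edgeR, 640 by DESeq2 (597 of them shared), 1835 with a class per cell by marker score and 2130 with equal cells per library. List pairs higher in fusion numbered 22, against 10 with DESeq2. List pairs lower in fusion numbered 66, against 9 with DESeq2, 35 by marker score, and 41 both at Leiden resolution 2 and when genes called between genotypes were also left out of clustering. The causes were not tested. Counts of calls could not be recomputed without a fusion library, which leaves 1 against 1. No paired analysis was possible because there is 1 wild-type library, so the groups share fewer than 2 replicate numbers. After seeing the data, monocytes were also taken without the cluster with Ace and together with dendritic cells, and neutrophils as 1 class, where Spp1 differed by 3.20 ± 0.19 and Thbs1 by -2.25 ± 0.19.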
